A study of Mus musculus with 6 samples.

Results

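Most open chromatin sites inside genes lie in introns, and in a differentiated tissue many of these sites are enhancers that act on the gene around them or on a neighbour. The intronic peaks described here were those that the deposited peak table annotates as intronic, that were under 2500 bases wide, and that lay on chromosomes 1 to 19. They numbered 26658 of 75134 peaks, or 35.5% of the table, and were annotated to 7064 genes. The libraries were ATAC-seq profiles of the quadriceps femoris, a thigh muscle that extends the knee, and ATAC-seq marks open chromatin by where a transposase can insert sequencing adapters. There were 3 libraries from Prr14-KO mice (KO replicates 4, 5 and 7) and 3 from Prr14-WT mice (WT replicates 3, 4 and 8), all of Mus musculus and all made from nuclei of frozen muscle. The sources used here give no age, sex or strain and do not say which stretch of Prr14 was deleted. Nor do the labels tie each library to an animal of its own, so the p-values reflect a spread between samples that may be technical.

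PRR14 is a protein of the nuclear lamina that tethers heterochromatin to the nuclear edge, and the series title names myofibre identity and the factor MEF2C. MEF2 proteins are transcription factors that switch on muscle genes, often from intronic and distal enhancers, and class IIa histone deacetylases such as HDAC4 hold them in check. Fast fibres of the quadriceps burn glycogen, whereas slow fibres rely on mitochondria and are shaped by nuclear receptors and the coactivator PGC-1α. Whole muscle holds other cell types beside fibres, and in such bulk samples fewer cells of a type and less open chromatin per cell cannot be told apart.

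Total counts in peaks ran from 9346968 to 12061822 in KO libraries and from 7608514 to 11575061 in WT libraries, and the intronic peaks took 19.2% to 20.7% of them in KO against 19.5% to 21.0% in WT. Over these peaks the Spearman correlation of log2 CPM (counts scaled to a common depth with TMM factors) was 0.905 to 0.917 within KO, 0.879 to 0.897 within WT and 0.851 to 0.878 between the groups. WT replicates 4 and 8 stood apart from the rest, at 46.0 and -41.6 on the second principal component, where the remaining 4 libraries lay between -19.4 and 19.4. Within each group the spread exceeded Poisson sampling (chi-square per degree of freedom 2.95 to 5.08). Prr14 itself held 1 peak, over its promoter, and 0 intronic peaks, and that promoter peak had 51.2, 59.6 and 70.6 CPM in KO against 62.2, 66.5 and 57.1 CPM in WT (adjusted p = 0.961), which checks no label as the deleted stretch is not known. Promoter peaks were present at 7 of 7 myofibre markers and summed to 628 to 666 CPM in KO and 575 to 898 CPM in WT. Summed promoter levels of the other cell types overlapped between the groups, at 48.5 to 71.3 CPM in KO against 39.3 to 64.4 CPM in WT for endothelium (5 of 7 markers with a peak) and 19.5 to 21.8 CPM in KO against 19.9 to 23.4 CPM in WT for smooth muscle (4 of 5). For fibro-adipogenic cells they were 80.0 to 99.8 in KO and 73.0 to 95.4 CPM in WT (5 of 5), and for satellite cells 43.2 to 56.6 CPM in KO and 43.1 to 50.9 CPM in WT (3 of 4). Adipocyte markers summed to 20.5 to 31.1 CPM in KO and 18.1 to 26.8 CPM in WT (3 of 4), macrophage markers to 1.89 to 3.93 CPM in KO and 3.12 to 3.39 CPM in WT (1 of 5), and 0 of 4 Schwann cell markers had a promoter peak.

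The sequences at hand for these regions are those around gene starts, and 95 intronic peaks held a start of the RefSeq gene table inside them, 103 starts in all. At 12 of the 95 the start was that of the gene the peak is annotated to, so that an internal or alternative promoter lay within the peak. Of these 12, 6 were called, that of Cyth1 higher in KO and the others lower. Over all 73896 tested peaks, 4.23% were lower and 2.77% higher, and 12 peaks are too few to set a share against those. Only the 6 called ones are shown, because they tie a called intronic peak to a named start: the 250 bases before the start, read 5′ to 3′ on the gene's strand from RefSeq, build GRCm38.p6. Capitals mark motif matches on either strand. The motif of MEF2 was searched as YTAWWWWTAR, where Y is C or T, W is A or T and R is A or G. That of the muscle E-box, which myogenic factors bind, was searched as CAGCTG. For MEF3 the letters were TCAGGTT. The AP-1 motif was taken as TGANTCA, where the base in the middle is C or G. For the estrogen-related receptors the half-site searched was AAGGTCA. Among core promoter elements the search took CCAAT, and for the TATA box TATAAA. The windows are chr8:54571189-54571438 (+) for Asb5, chr3:116354245-116354494 (-) for Cdc14a, chr2:43787105-43787354 (+) for Arhgap15, chr6:30243804-30244053 (-) for Ube2h, chr9:72693048-72693297 (+) for Nedd4 and chr11:118202731-118202980 (-) for Cyth1.
Asb5: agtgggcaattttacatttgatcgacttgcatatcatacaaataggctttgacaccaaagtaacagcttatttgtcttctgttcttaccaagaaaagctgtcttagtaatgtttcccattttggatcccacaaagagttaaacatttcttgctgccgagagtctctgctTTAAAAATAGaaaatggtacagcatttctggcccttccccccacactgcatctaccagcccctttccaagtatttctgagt
Cdc14a: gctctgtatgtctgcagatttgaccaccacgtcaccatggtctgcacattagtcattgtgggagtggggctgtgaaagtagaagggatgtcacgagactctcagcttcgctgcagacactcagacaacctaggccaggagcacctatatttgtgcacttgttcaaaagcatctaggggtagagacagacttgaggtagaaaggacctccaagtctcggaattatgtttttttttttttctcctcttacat
Arhgap15: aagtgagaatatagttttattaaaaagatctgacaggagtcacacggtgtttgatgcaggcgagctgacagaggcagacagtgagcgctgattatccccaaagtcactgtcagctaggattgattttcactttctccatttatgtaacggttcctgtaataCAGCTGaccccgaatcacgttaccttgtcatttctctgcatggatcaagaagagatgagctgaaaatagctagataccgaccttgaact
Ube2h: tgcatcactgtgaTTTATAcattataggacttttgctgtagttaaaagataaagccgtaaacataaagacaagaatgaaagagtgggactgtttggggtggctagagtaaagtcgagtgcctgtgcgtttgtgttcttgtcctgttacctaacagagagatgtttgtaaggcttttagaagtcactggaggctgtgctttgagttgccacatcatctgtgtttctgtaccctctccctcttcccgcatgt
Nedd4: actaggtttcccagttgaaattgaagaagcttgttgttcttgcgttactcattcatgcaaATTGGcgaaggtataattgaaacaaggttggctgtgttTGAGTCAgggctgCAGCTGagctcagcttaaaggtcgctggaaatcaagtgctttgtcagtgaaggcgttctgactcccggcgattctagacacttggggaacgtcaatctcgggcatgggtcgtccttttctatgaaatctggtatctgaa
Cyth1: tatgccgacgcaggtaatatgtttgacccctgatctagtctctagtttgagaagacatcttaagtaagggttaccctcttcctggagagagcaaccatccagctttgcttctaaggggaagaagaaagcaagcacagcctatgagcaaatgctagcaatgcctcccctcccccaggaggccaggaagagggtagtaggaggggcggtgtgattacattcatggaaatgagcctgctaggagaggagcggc
The Asb5 window held a MEF2 match, which 2.92% of 32851 such windows of the whole RefSeq table hold. Nedd4 had an AP-1 match (4.46% of windows), a CCAAT box match (33.9%) and an E-box (13.0%), Arhgap15 an E-box, and Ube2h a TATA box match (12.4%). Letters of MEF3 and of the estrogen-related receptor half-site, found in 3.49% and 4.08% of all windows, were in none of the 6, and the windows of Cdc14a and Cyth1 held none of the motifs. The matches do not overlap one another.

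Asb5 encodes an ankyrin repeat and SOCS box protein of skeletal muscle. Its peak, 20515 bases from the annotated start, had 12.7, 10.6 and 13.4 CPM in KO and 26.4, 36.2 and 22.5 CPM in WT, a log2 fold change of KO over WT of -1.22 ± 0.20 (SE, adjusted p = 3.83e-07, edgeR quasi-likelihood test). All KO libraries lay below all WT libraries. Cdc14a, a phosphatase, fell by 1.21 on the log2 scale, with 2.61, 2.38 and 1.65 CPM in KO against 5.04, 6.53 and 3.68 CPM in WT (adjusted p = 0.0159), and Arhgap15, a Rac GTPase-activating protein, fell by 1.01. Both ubiquitin pathway genes fell too. Ube2h, an E2 conjugating enzyme, had 13.8, 13.7 and 9.33 CPM in KO and 16.8, 25.6 and 20.1 CPM in WT (log2 fold change -0.77), and Nedd4, an E3 ligase, had 26.7, 30.5 and 30.4 CPM in KO and 45.6, 53.7 and 35.2 CPM in WT (-0.62). Cyth1, an exchange factor for ARF GTPases, rose by 0.55, with 42.0, 52.7 and 39.7 CPM in KO libraries against 30.5, 31.0 and 30.6 CPM in WT libraries. Of the 95 peaks with a start, 7 were lower and 7 were higher in KO (7.37% each), with a median log2 fold change of 0.00.

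Intronic peaks also held 17 miRNA hairpins in 16 peaks, of which 1 was called higher and 0 were called lower, with log2 fold changes from -0.55 to 0.90. The called one is Mir5618, inside an intron of Tmem123 on chromosome 9, and its mature products are shown with the seed (bases 2 to 8) in capitals.
mmu-miR-5618-5p: uACCCUUUacaccguguagu
mmu-miR-5618-3p: cUAUACCAuguaaagggu
Their peak had 15.6, 14.0 and 11.3 CPM in KO against 6.06, 6.80 and 9.20 CPM in WT (log2 fold change 0.90 ± 0.23, adjusted p = 0.00376), without overlap of the groups. The 2 products have different seeds.

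Among intronic peaks, as over the whole table, more were called lower than higher in KO under the scaling used. Of 26202 peaks tested, 1297 were lower in KO (4.95%) and 824 were higher (3.14%) at an adjusted p below 0.05, against 4.23% lower and 2.77% higher over all 73896 tested peaks of the table. These shares are close, and those of intergenic peaks were 4.94% lower and 3.06% higher. Of promoter peaks within 1 kb, 1.03% were lower and 1.05% higher. The median log2 fold change was -0.04 for intronic peaks and -0.01 for all peaks, and 24081 intronic peaks were not called. The filter on low counts left out 456 peaks, whose median width was 258 bases and whose highest count in any library was 40. Called peaks differed by about a factor of 2 at the median, with a log2 fold change of -0.98 among the lower ones and 0.93 among the higher ones. The balance of directions was not stable: 61.2% of calls were lower with all libraries. Leaving out WT replicate 4 gave 37.2% (535 lower, 905 higher), leaving out KO replicate 7 gave 49.6%, and leaving out WT replicate 3 gave 67.8%. With the authors' own factors, which shift the median of all peaks to 0.19, it was 28.6% (276 lower, 688 higher), and with total counts it was 52.0%. Calls also fell to 585 lower and 379 higher without KO replicate 5, to 825 lower without KO replicate 7, and to 483 and 481 higher without KO replicate 4 and WT replicate 3. No peak changed the direction of its call in any of these settings, and 373 of the lower calls and 262 of the higher calls held whichever library was left out. The authors' deposited table calls 203 of these intronic peaks lower and 657 higher in KO, out of 23065 with an adjusted p, where over the whole table it calls 0.872% of 66394 peaks lower and 2.44% higher.

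The share of lower peaks was highest, and that of higher peaks lowest, among the peaks farthest from a start. The deposited table gives each peak's distance to the nearest annotated start, which ran from 3140 to 1101510 bases with a median of 24380 bases. Among 5338 peaks within 10 kb of a start, 4.35% were lower and 3.88% higher in KO, and the median log2 fold change was 0.01. From above 10 to 30 kb (9630 peaks) the shares were 4.20% and 3.24% with a median of -0.02, and from above 30 to 100 kb (8265 peaks) 5.55% and 2.98% with a median of -0.06. Beyond 100 kb (2969 peaks) 6.80% were lower and 1.99% higher, and the median was -0.15. The class beyond 100 kb had the highest share of lower calls, the lowest share of higher calls and the lowest median of the 4 classes in all 13 settings tried. Its median lay between 0.10 and 0.17 below that of all peaks in each of them. The shares themselves moved: without WT replicate 4, lower calls made up 1.62%, 1.63%, 2.32% and 3.20% of the 4 classes from near to far and higher calls 4.53%, 3.61%, 3.13% and 1.68%, so that lower calls outnumbered higher ones only beyond 100 kb. Over the 6 omissions of a library the farthest class held 91 to 199 lower and 28 to 63 higher calls, against 202 and 59 with all libraries. Under the authors' factors it held 53 of each, so the excess of lower calls was not seen there.

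Peaks beyond 100 kb took 1.83%, 1.78% and 1.74% of all counts in the KO libraries and 1.92%, 1.95% and 1.92% in the WT libraries. The groups did not overlap there, whereas the shares of each of the other 3 distance classes overlapped between KO and WT. Relative to the mean of the 6 libraries, the median peak beyond 100 kb lay at -0.04, -0.09 and -0.09 (log2) in KO and at 0.04, 0.02 and 0.12 in WT. From the nearest class to the farthest this median fell in the 3 KO libraries and rose in WT replicates 3 and 8, while WT replicate 4 went with the KO libraries, at 0.02 in the farthest class and 0.06 in the nearest. The same order was seen among peaks from 500 to under 1000 bases wide, of which 4.86%, 4.64%, 6.02% and 8.49% were lower from near to far, and among peaks downstream of the start, of which 7.19% beyond 100 kb were lower and 1.77% higher. It was not shown to be particular to introns. Of 6548 intergenic peaks beyond 100 kb, 6.73% were lower and 2.0% higher, with a median of -0.16, against 3.21% and 4.09% for intergenic peaks within 10 kb.

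**Figure D1:**
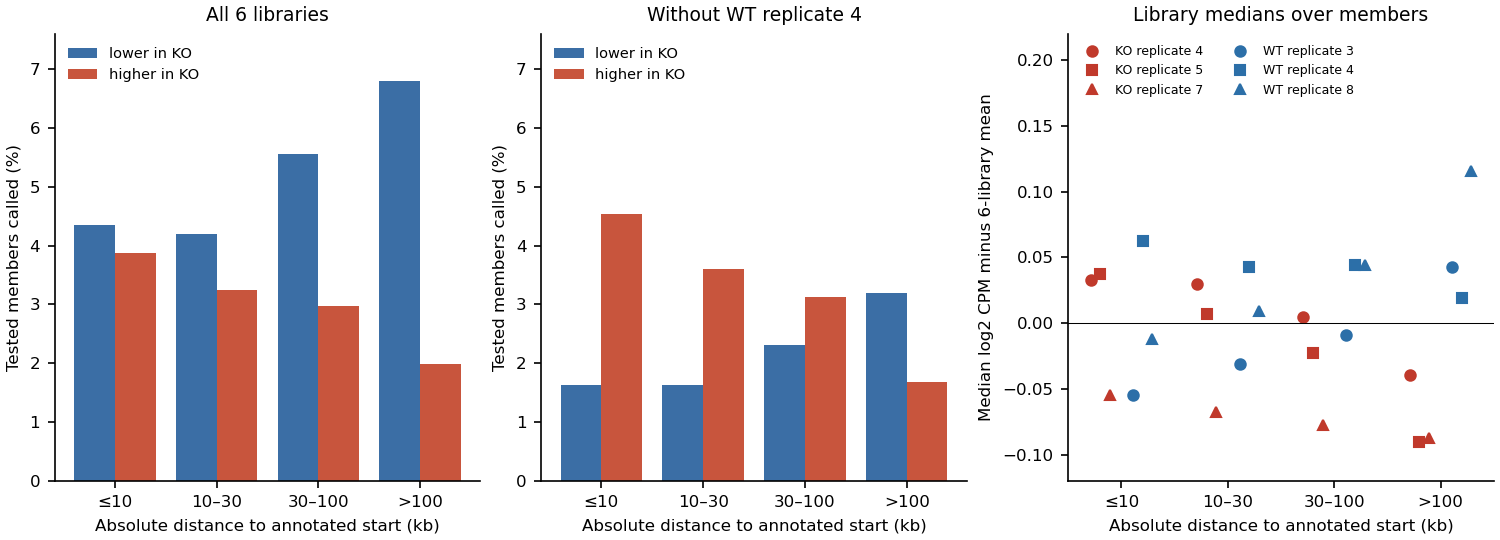
Left and middle: percent of tested intronic peaks called lower (blue) or higher (red) in KO, by absolute distance to the annotated start in kb, with all 6 libraries and without WT replicate 4. Right: for each library, the median over peaks of log2 CPM minus the mean of the 6 libraries, KO in red and WT in blue. Lower calls peak at 6.80% beyond 100 kb, where the 3 KO medians all lie below the 3 WT medians. Labels call the intronic peaks members.

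Wider peaks, which hold more reads, were called more often. Lower calls made up 1.68% of peaks under 500 bases, 5.57% of those from 500 to under 1000 bases and 11.9% of those from 2000 bases to the limit, while the median log2 fold change was -0.04, -0.03 and -0.08 in those classes. The 3 widest peaks under the limit were annotated to Apoh (2497 bases), Cped1 (2498 bases) and Tent4a (2499 bases), and intronic peaks just past it to Ppfia1 and Ranbp10 (2504 bases each). Their mean levels were 46.3, 35.1 and 30.6 CPM in KO and 59.8, 55.1 and 36.8 CPM in WT inside the limit, and 43.8 and 29.0 CPM in KO and 38.6 and 24.0 CPM in WT outside it.

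The intronic peaks with the smallest adjusted p among those lower in KO were led by a peak in Mib1, the ligase that primes Notch ligands for endocytosis. It had 7.73, 8.62 and 9.78 CPM in KO against 29.5, 44.1 and 33.8 CPM in WT, a log2 fold change of -2.04 ± 0.21 (adjusted p = 3.05e-19). A peak in Cacna1e, the pore subunit of R-type calcium channels, had 9.503, 7.47 and 7.95 CPM in KO and 30.7, 36.7 and 20.5 CPM in WT (-1.83 ± 0.21, adjusted p = 9.01e-15). KO libraries of both peaks lay close together and far under the lowest WT library. In Syne1, which encodes nesprin 1, a giant protein of the outer nuclear membrane that links nuclei to the cytoskeleton, a peak 3494 bases from the annotated start had 3.76, 4.76 and 5.30 CPM in KO and 16.1, 25.4 and 13.1 CPM in WT (-1.98 ± 0.24, adjusted p = 1.06e-13). A peak in Aldh1a1, an enzyme of retinoic acid synthesis, had 10.3, 5.50 and 8.23 CPM in KO and 20.2, 31.5 and 26.0 CPM in WT. The other lower ones were 4 peaks of Mylk4 and 1 each of Tex9, Sh2d4b, Tbc1d19 and Ntng1, the last of which encodes netrin G1 and lay 211512 bases from its start with 2.51, 2.79 and 1.65 CPM in KO and 8.84, 14.6 and 9.33 CPM in WT.

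Among peaks higher in KO, the largest change of the 12 named was in Hephl1, a copper-dependent ferroxidase of the hephaestin family, 3709 bases from its start. It had 18.6, 14.0 and 6.31 CPM in KO against 3.597, 1.93 and 1.97 CPM in WT (log2 fold change 2.36 ± 0.28, adjusted p = 2.96e-14), so KO replicate 7 was well under the other KO libraries but above all WT libraries. A peak 89815 bases upstream of the annotated start of Esrrg, an orphan nuclear receptor that drives oxidative metabolism in muscle, had 16.1, 14.4 and 11.2 CPM in KO and 2.77, 2.67 and 4.86 CPM in WT (2.04 ± 0.26, adjusted p = 6.83e-12). A peak in Pde4d, a cAMP phosphodiesterase, had 18.9, 19.4 and 11.6 CPM in KO and 4.11, 5.97 and 5.52 CPM in WT (1.67 ± 0.24, adjusted p = 1.04e-09). WT libraries of the 3 peaks were all under 6 CPM and KO libraries all above them. In Pitpnm3, a phosphatidylinositol transfer protein, the peak was strong in both groups, with 39.1, 45.6 and 42.0 CPM in KO and 15.8, 18.2 and 15.6 CPM in WT (1.35 ± 0.19). The remaining ones were annotated to Fam222a, Stmnd1, Fsd1l, Ninj2, Usp29, Cep20, Rab4a and Tmem204. For 3 of them the annotated gene is the nearest start and not the host: the Ninj2 peak lies in B4galnt3, the Tmem204 peak in Ift140, and the Rab4a peak in no span of a RefSeq protein-coding gene. Over all intronic peaks, 22354 (83.9%) lay in the span of the annotated gene and 4304 did not. The groups overlapped at none of these 24 peaks, and all 24 held their call whichever library was left out. These peaks were chosen by adjusted p in the same libraries, so neither fact is separate support. Of all intronic calls, 373 of 1297 lower and 262 of 824 higher ones held in every omission.

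**Figure D2:**
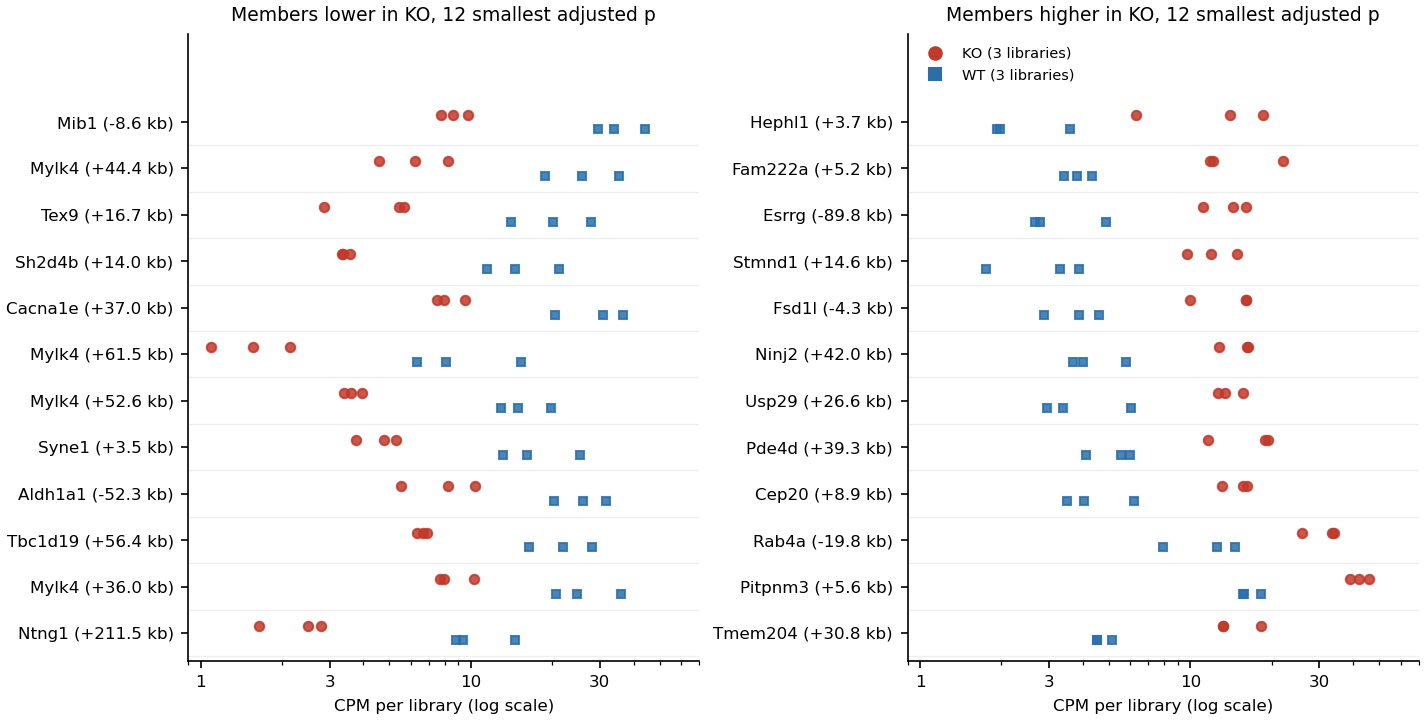
CPM on a log axis in each KO (circles) and WT (squares) library for the 12 intronic peaks with the smallest adjusted p in each direction, labelled by annotated gene and signed distance to its start. KO and WT points do not overlap in any row, and the KO points (red) lie left of the WT points (blue) in the left panel and right of them in the right panel. Titles call the intronic peaks members.

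Most genes with calls had few of them, though all 15 tested peaks of Mylk4 were called lower. The 1297 lower peaks were spread over 779 genes and the 824 higher peaks over 657. To give each gene 1 value per library, counts of its intronic peaks were summed: of all 6970 sums tested, 6.36% were lower and 4.49% higher in KO. Among 1649 genes with 5 or more tested peaks, 185 sums were lower (11.2%), 74 were higher (4.49%) and 1390 were not called. Leaving out 1 library gave 73 to 165 lower sums and 28 to 187 higher ones, with the fewest of both without KO replicate 5 and the most higher ones without WT replicate 4. Lower sums also numbered 108 without KO replicate 4, 84 without KO replicate 7 and 121 without WT replicate 3, and higher sums 29 without KO replicate 4 and 33 without WT replicate 3. Of the 1649 genes, 894 had no called peak and 72 had both lower and higher ones. Among the 584 genes with 10 or more peaks, 15 had a negative fold change at every peak and 2 a positive one at every peak, and the spread of fold changes within a gene had a median SD of 0.43, against 0.52 over all intronic peaks.

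Genes with many intronic peaks had more lower and fewer higher calls per peak. Lower and higher calls made up 2.88% and 3.17% of peaks that were the only one of their gene, 3.68% and 3.62% in genes with 2 to 4 peaks, and 4.44% and 3.46% in genes with 5 to 9. In genes with 10 to 19 peaks the shares were 6.91% and 2.98%, and in genes with 20 or more 6.71% and 1.91%, where the median log2 fold change was -0.11. Genes with 20 or more peaks had the lowest share of higher calls and the lowest median in all 13 settings, and the highest share of lower calls in 1 of them. Without WT replicate 4 their shares were 2.54% lower and 2.38% higher. Their peaks were also wider and held more reads, with medians of 679 bases and 5.72 CPM. Peaks that were the only one of their gene had medians of 531 bases and 3.93 CPM. Wider peaks were called more often, as given above, and the part of width in these shares was not tested.

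Of the 12 genes with the most intronic peaks, the sums of Rbfox1, Zbtb20 and ENSMUSG00000021745 were called lower and the others were not called. Over genes with 5 or more peaks, 11.2% of sums were lower. Of all tested peaks taken singly, 4.23% were lower and 2.77% higher. The shares of lower peaks in Sox6 (3.77%), Gse1 (2.04%), Foxn3 (2.08%) and Cdkal1 (2.17%) were under that 4.23%. Rbfox1, with 18 of 47 peaks lower, is described below. Pde4d had 81 tested peaks, of which 5 were lower (1 without WT replicate 4, 2 without KO replicate 5 or 7) and 2 higher, and its sum was 615, 629 and 501 CPM in KO and 540, 719 and 599 CPM in WT, with overlap. Its peaks ran from -1.82 to 1.67 on the log2 scale, a spread wider than the mean shift of -0.09 ± 0.13 of the sum. Rora, a nuclear receptor of the circadian clock and of lipid metabolism, had 77 peaks, 8 lower (3 to 6 over the omissions of a library) and 1 higher, and a sum of 678, 719 and 660 CPM in KO against 767, 927 and 736 CPM in WT (-0.24 ± 0.13, adjusted p = 0.254). Zbtb20, a zinc finger repressor, had 54 peaks and 6 lower calls (3 on omitting KO replicate 4, KO replicate 5, WT replicate 3 or WT replicate 4), and its sum was called lower (-0.38 ± 0.13, adjusted p = 0.0420), a call that held in only 1 of the 6 omissions of a library. The same was true of a gene listed without a symbol, ENSMUSG00000021745, whose 49 peaks all lie in the RefSeq span of Ptprg, a receptor phosphatase (-0.39 ± 0.13, adjusted p = 0.0392). Sox6, which represses slow fibre genes, had 2 lower and 0 higher of 53 peaks, Kcnma1, the large-conductance potassium channel, 3 and 1 of 53, and Celf2, an RNA-binding protein, 5 and 0 of 49. Gse1 had 1 lower and 0 higher of 49 peaks, the forkhead repressor Foxn3 1 and 2 of 48, Cdkal1, a tRNA-modifying enzyme, 1 and 1 of 46, and the nuclear factor Nfib 3 and 0 of 46. None of the sums of those 7 genes was called with all libraries and TMM factors. That of Celf2, at 200.5, 196 and 189 CPM in KO and 268, 249.7 and 242 CPM in WT, lay near the threshold (-0.38 ± 0.14, adjusted p = 0.0518) and was called lower with total counts (0.0387), DESeq2 (0.0161), limma-voom (0.0408) and without WT replicate 4 (0.00353). The Celf2 sum was not called in the other 5 omissions (0.296 without KO replicate 5) or with the authors' factors (0.798). Lower calls of Celf2 numbered 2 without KO replicate 5 or WT replicate 4 and 3 without KO replicate 7, and those of Nfib 6 without WT replicate 8.

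Mylk4, a member of the myosin light chain kinase family, was the most evenly reached of the genes named for their number of calls. All 15 of its tested peaks, spread from 6117 to 64958 bases from the start on chromosome 13, were called lower in KO, by 0.86 to 2.63 on the log2 scale. The sum was 124, 103 and 96.2 CPM in KO and 273, 367 and 208 CPM in WT, a log2 fold change of -1.39 ± 0.14 (adjusted p = 2.30e-16). The strongest single change was a peak at chr13:32714629-32715276, with 1.57, 2.13 and 1.10 CPM in KO against 8.12, 15.3 and 6.31 CPM in WT (-2.63 ± 0.31). At the most significant one, chr13:32731165-32732929, KO libraries had 8.25, 6.24 and 4.57 CPM and WT libraries 25.7, 35.5 and 18.8 CPM. KO and WT did not overlap at either peak or in the sum, and 13 of the 15 calls held in every omission of a library as well as 13 with the authors' factors. Like the genes described next, Mylk4 was named for lower calls in these libraries, so the lower sums are no separate support.

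Rbfox1, which encodes a splicing factor of muscle and neurons, had 47 tested peaks, 18 of them lower and 0 higher. The sum was 317, 298 and 275 CPM in KO against 414, 559 and 392.05 CPM in WT (-0.62 ± 0.13, adjusted p = 2.39e-04). Lower calls numbered 4 on omitting WT replicate 4, 10 on omitting KO replicate 7 and 11 on omitting KO replicate 5, while the sum stayed past the threshold in all 6 omissions but not with the authors' factors (adjusted p = 0.464). Trdn encodes triadin, which anchors calsequestrin to the calcium release channel of the sarcoplasmic reticulum. All 42 of its peaks had a negative fold change, 15 were called lower, and the sum was 171, 166 and 129 CPM in KO and 256, 314 and 240 CPM in WT (-0.80 ± 0.14, adjusted p = 2.11e-06, and 0.235 with the authors' factors). Its calls numbered 5 without WT replicate 4, 6 without KO replicate 5 or 7 and 9 without WT replicate 3. In both genes every KO sum lay under every WT sum.

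Other genes with many lower peaks included both splicing and signalling genes, and none of the 6 sums described next was called with the authors' factors (adjusted p = 0.546 for Mbnl1, 0.273 for Pik3r1, 0.210 for Pde4dip, 0.486 for Cradd, 0.522 for Ppp1r12b and 0.0591 for Pln). Mbnl1, a splicing factor that is sequestered in myotonic dystrophy, had 8 of 23 peaks lower (2 without WT replicate 4) and a sum of 171, 179 and 166 CPM in KO and 235, 298 and 225 CPM in WT (-0.56 ± 0.14). Pik3r1, the regulatory subunit of phosphoinositide 3-kinase, had 8 of 14 lower (3 without KO replicate 5, 5 without WT replicate 3 or 4), all 14 with a negative fold change, and a sum of 108, 98.2 and 119 CPM in KO and 169, 205 and 181 CPM in WT (-0.77 ± 0.14, adjusted p = 7.16e-06). For Pde4dip, known as myomegalin, 8 of 16 were lower (3 without KO replicate 4 or WT replicate 4, 4 without KO replicate 5, KO replicate 7 or WT replicate 8) and the sum fell by 0.81. Cradd, an adaptor of caspase 2, had 9 of 22 lower (3 without WT replicate 4 or KO replicate 5) and a sum that fell by 0.61. Ppp1r12b, a targeting subunit of myosin phosphatase, had 7 of 16 lower (2 without WT replicate 4) and a sum that fell by 0.57, a call lost without KO replicate 7 (adjusted p = 0.0713). Pln, or phospholamban, an inhibitor of the sarcoplasmic calcium pump, had 8 of 11 peaks lower (3 without KO replicate 5, 4 without WT replicate 4), with a sum of 58.0, 46.1 and 52.8 CPM in KO and 88.8, 129 and 92.6 CPM in WT (-0.99 ± 0.15, adjusted p = 4.17e-08). None of these 11 lies in Pln itself: 10 are in introns of Cep85l and 1 is in Slc35f1, so that they count for Pln as the gene with the nearest start.

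On the other side, Usp29, an imprinted deubiquitinase gene, had 9 of 12 peaks higher in KO and 0 lower. The sum was 135, 146 and 113 CPM in KO and 55.2, 53.6 and 71.7 CPM in WT (1.13 ± 0.15, adjusted p = 2.06e-10), and omissions of a library left 6 to 9 calls. Esrrg had 8 of 23 peaks higher and 0 lower, with a sum of 183, 161 and 142 CPM in KO and 77.8, 106 and 115 CPM in WT (0.70 ± 0.14, adjusted p = 7.40e-05), and 3 calls without WT replicate 3 or 4 without KO replicate 4. Pax7, the defining factor of satellite cells, the muscle stem cells, had 4 of 8 peaks higher, with a sum of 69.3, 79.7 and 67.5 CPM in KO and 36.7, 34.2 and 42.2 CPM in WT (0.94 ± 0.16, adjusted p = 5.78e-07). KO sums lay above WT sums in all 3 genes, and the sum stayed past the threshold in every omission and with the authors' factors. The genes were named for higher calls on these same counts, so the higher sums are no separate support. Pax7 is itself a satellite cell marker. Summed promoter levels of satellite cell markers overlapped between KO and WT, as given above, and their part in the Pax7 change was not tested.

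Runx1, a transcription factor that denervated muscle is known to induce, had 4 of 10 peaks higher and a sum of 125, 125 and 89.0 CPM in KO against 67.8, 60.01 and 66.5 CPM in WT (0.80 ± 0.15, adjusted p = 8.71e-06). Hdac4, the class IIa deacetylase that represses MEF2 factors, had 5 of 37 peaks higher and 0 lower (9 higher without WT replicate 4, 3 without KO replicate 5), but its sum of 527, 608 and 467 CPM in KO and 408, 527 and 355 CPM in WT overlapped and was not called (0.31 ± 0.13, adjusted p = 0.118). It was called higher without WT replicate 4 (0.51, adjusted p = 2.08e-06) and with total counts (0.36, adjusted p = 0.0173). The Hdac4 sum was not called in the other 5 omissions (adjusted p = 0.502 without KO replicate 5) or with the authors' factors (0.415). Tead4, a partner of the YAP coactivator, had 4 of 7 peaks higher and a sum of 198, 200 and 192 CPM in KO and 131, 173 and 119 CPM in WT (0.48 ± 0.14), a call that held in only 2 of the 6 omissions. Mical2, an oxidase of actin, had 6 of 15 higher (1 without KO replicate 5, 2 without KO replicate 4 or WT replicate 8). Anks1b had 4 of 9, Ninj2 4 of 13, and Gm17087, a predicted gene whose 15 peaks all lie in introns of Pde10a, a cyclic nucleotide phosphodiesterase, 4 of 15. Sums of these last 4 genes rose by 0.50 to 0.56, and each lost its call in 2 or 3 of the 6 omissions and with the authors' factors, as did Tead4 with those factors. Their called peaks numbered 2 to 4 over the omissions for Anks1b, 1 to 4 for Ninj2, 1 to 5 for Gm17087, and those of Tead4 1 to 3.

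**Figure D3:**
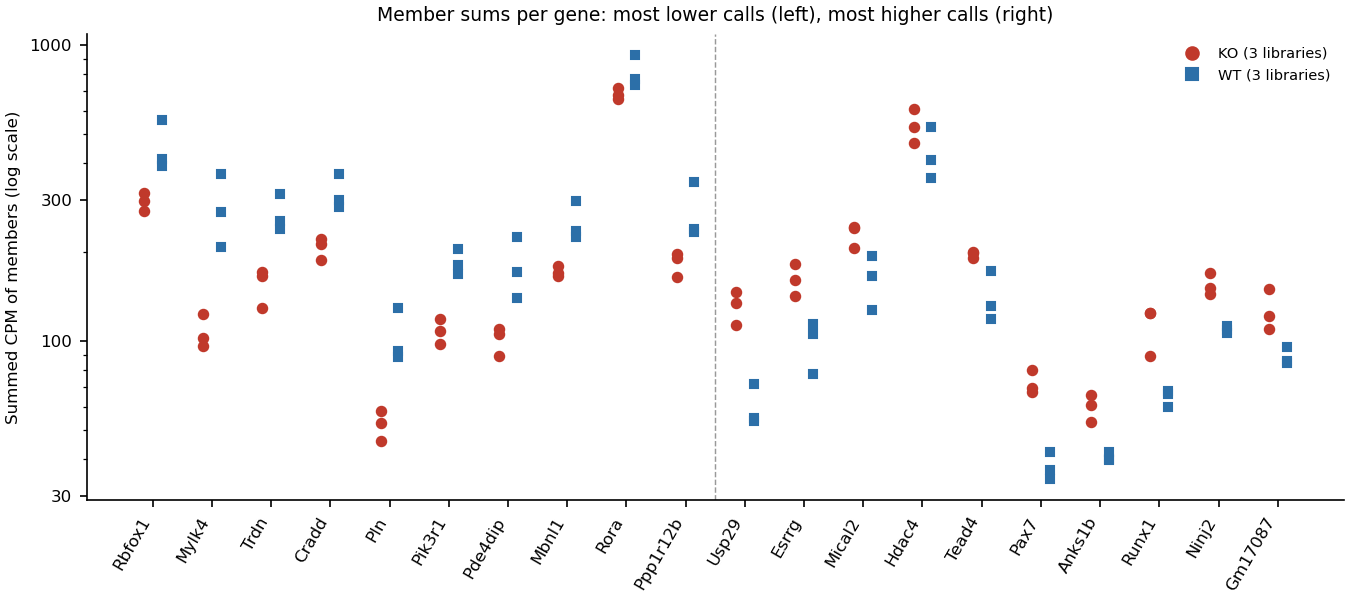
Summed CPM of intronic peaks per gene on a log axis, in each KO (circles) and WT (squares) library, for the 10 genes with the most lower calls (left of the dashed line) and the 10 with the most higher calls (right). KO and WT sums overlap only for Hdac4. The genes were chosen by calls on these same counts.

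**Figure D4:**
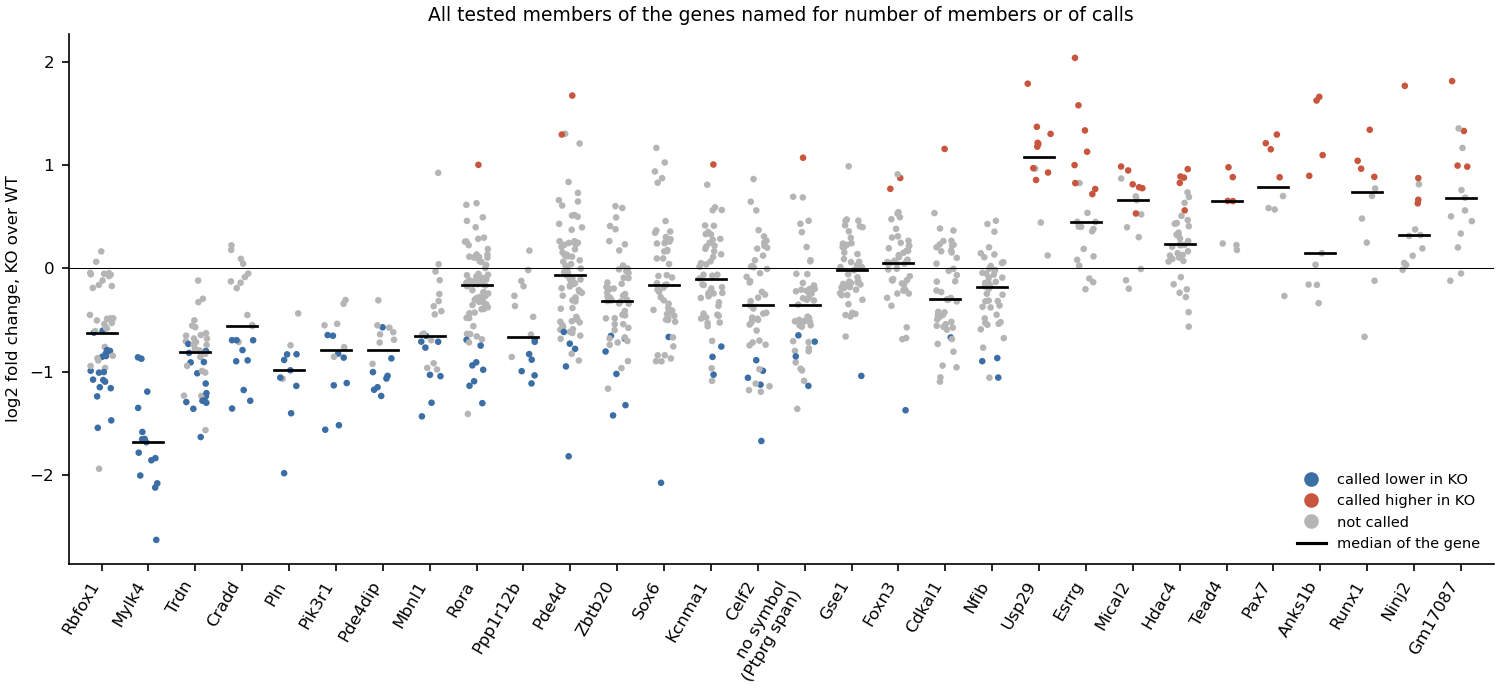
log2 fold change of KO over WT for every tested intronic peak (points) of the genes named for their number of peaks or of calls, with the median of each gene as a bar. Points of Mylk4 are all blue (called lower), while genes such as Pde4d, Sox6 and Foxn3 spread on both sides of 0.

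**Figure D5:**
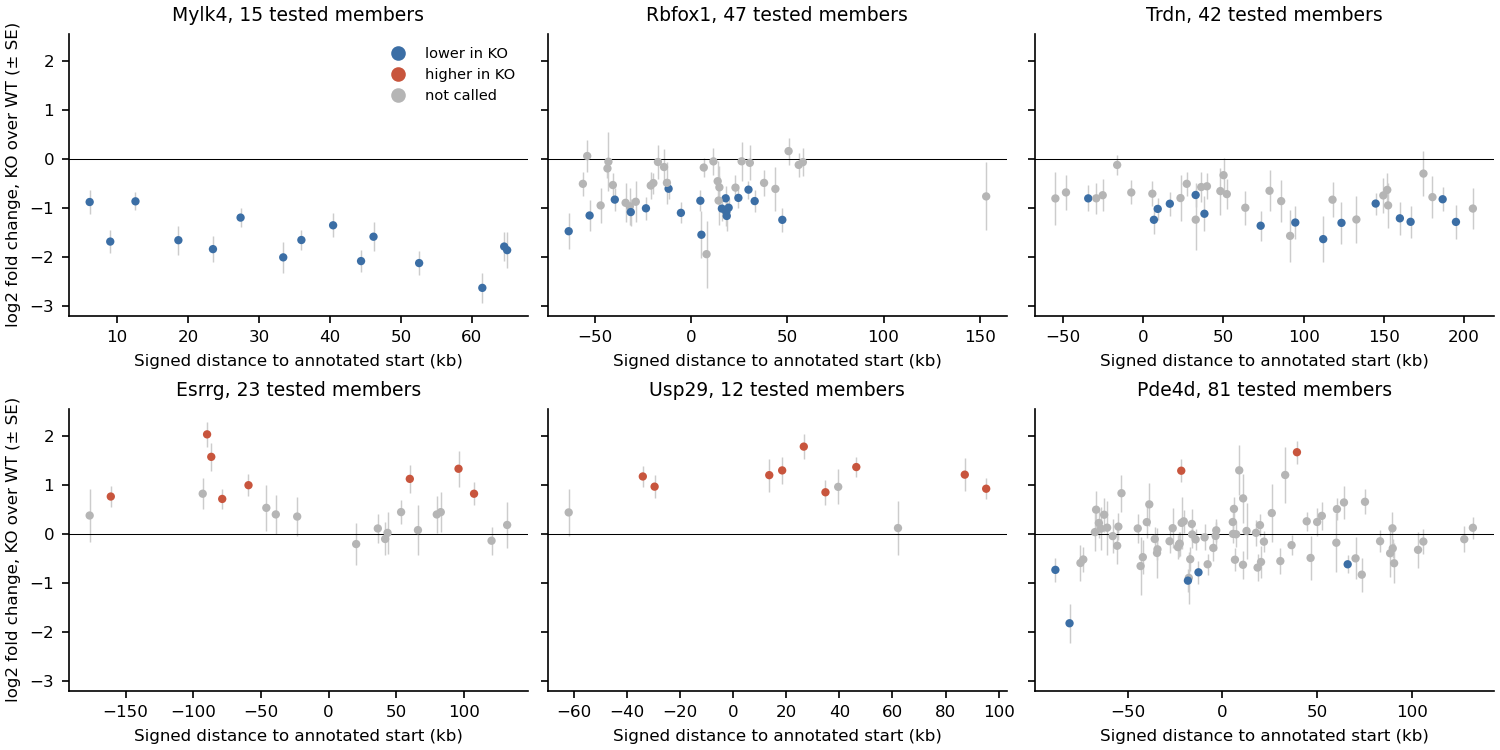
log2 fold change (± SE) of each tested intronic peak against its signed distance in kb to the nearest annotated start of the gene, for 6 genes. Every tested peak of Mylk4 is called lower and all values of Trdn lie below 0, while the highest values of Esrrg sit upstream of its start. A gene with several annotated starts can place far peaks near 0.

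Lower calls stood without a higher one, with all libraries, in the lists of fast fibre genes and of glycolysis and glycogen genes. Over all tested peaks, 4.23% were lower and 2.77% higher, with a median log2 fold change of -0.01. In the fast fibre list 25 of 85 peaks were lower and 0 higher, with a median log2 fold change of -0.43, but 15 of the 25 were those of Mylk4. The others were in Eya1 and Eya4, eyes absent homologues (2 of 13 and 4 of 26), in the factors Maf (1 of 11) and Tbx15 (1 of 10), and at the only peaks of Myl1, a fast myosin light chain (-1.05), and Tpm1, a tropomyosin (-0.70). In the glycolysis and glycogen list 16 of 62 were lower and 0 higher, with a median of -0.42. Lower peaks made up 4 of 5 of Gyg, the glycogenin that primes glycogen, and 3 of 5 of Ppp1r3a, the muscle subunit that brings protein phosphatase to glycogen. A peak in Gpd2, the mitochondrial glycerol phosphate dehydrogenase, had 16.5, 17.4 and 12.6 CPM in KO and 29.0, 40.1 and 28.7 CPM in WT (-1.07 ± 0.20), without overlap of the groups. The glycogen list had 7 lower calls when KO replicate 5 was omitted, 8 when WT replicate 4 was and 9 when KO replicate 4 was, and the fast fibre list 19 to 25 over all omissions. With the authors' factors 2 and 14 were lower, and both medians stayed below 0 in every setting.

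In the lists of calcium handling and contractile genes lower calls outnumbered higher ones with TMM factors, though most peaks were not called. In the list of calcium handling and the triad, the junction where nerve impulses release calcium, 27 of 170 peaks were lower and 2 higher, with a median of -0.33, and the lower calls numbered 10 without WT replicate 4 and 13 without KO replicate 5 or 7. The authors' factors gave 4 lower and 2 higher calls. Besides the 15 of Trdn these were in Cacna2d1, a calcium channel subunit (4 of 24), in the junctophilin Jph1 (3 of 15), and 1 each in Jph2, Camk2d, Camk2g, Dysf and Mss51. The leading Cacna2d1 peak had 15.7, 13.5 and 15.8 CPM in KO and 27.4, 45.5 and 21.4 CPM in WT (-1.08 ± 0.20, adjusted p = 6.01e-06). The 2 higher peaks were the only one of Orai1, the store-operated calcium channel (1.61), and 1 of 3 of Srl, or sarcalumenin (0.85). In the sarcomere and Z disc list 19 of 165 were lower and 5 higher, with a median of -0.23: 6 of 21 in Pdlim5, 5 of 15 in the nebulin gene Neb and 4 of 10 in Myom1 were lower, while 3 of 6 in Actn2, the Z disc actinin, were higher. Lower calls numbered 11, 5 and 10 without KO replicates 4, 5 and 7 and 6 without WT replicate 4, and higher calls ran from 1 without KO replicate 4 to 9 without WT replicate 4, where they outnumbered the lower ones. Under the authors' factors 3 were lower and 3 higher. Synpo2 had both kinds, with 20.3, 15.8 and 16.6 CPM in KO and 3.70, 8.91 and 8.28 CPM in WT at chr3:123089262-123089993 (1.33 ± 0.23), and 17.9, 15.9 and 14.4 CPM in KO and 30.01, 40.7 and 23.4 CPM in WT at chr3:123142410-123144122 (-0.97 ± 0.20). KO and WT were apart in both, in opposite directions. In the slow fibre list 11 of 89 were lower (3 without KO replicate 5, 6 without WT replicate 4, and 1 with the authors' factors, where 2 were higher). Of the 89 peaks, 53 were of Sox6, a repressor of slow fibre genes. The lower ones were 8 of Pln, none of which lie in Pln itself, 2 of Sox6 and 1 of Mybpc1. The 1 higher peak was the only one of the slow troponin Tnni1, with 48.0, 44.5 and 32.001 CPM in KO and 23.7, 24.6 and 20.5 CPM in WT (0.85 ± 0.19, adjusted p = 3.45e-04).

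Genes of the dystrophin complex, which ties the fibre's cytoskeleton to the matrix, gave 13 lower and 4 higher of 133 peaks (median -0.24), and lower calls dropped to 2 on omitting KO replicate 5, to 3 on omitting WT replicate 4 and to 6 on omitting KO replicate 7. With the authors' factors the balance turned round, at 1 lower and 3 higher. Sgcd, a sarcoglycan, had 3 of 14 lower, the leading one with 8.35, 6.81 and 5.12 CPM in KO and 19.2, 25.5 and 15.8 CPM in WT (-1.58 ± 0.22), and Dtna, a dystrobrevin, 4 of 16. Utrn, the utrophin that can stand in for dystrophin, went the other way with 3 of 15 higher, the leading one at 11.5, 11.7 and 11.6 CPM in KO and 5.86, 5.88 and 3.55 CPM in WT (1.17 ± 0.25). At neither did the groups overlap. In the neuromuscular junction list 5 of 68 were lower and 5 higher (median 0.03). Both peaks of Lrp4, the agrin receptor, were higher, with 49.9, 51.3 and 44.3 CPM in KO and 22.8, 32.8 and 16.8 CPM in WT at the leading one (1.00 ± 0.19), while Erbb4, a neuregulin receptor, had a peak 603536 bases from its start with 3.13, 2.30 and 3.38 CPM in KO and 7.71, 9.74 and 11.0 CPM in WT (-1.69 ± 0.28). Over the omissions that list had 2 to 4 lower and 2 to 5 higher calls, and 1 and 5 with the authors' factors.

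The MEF2 list, named for the factor in the series title, had 12 of 160 peaks lower and 8 higher, with a median of -0.05 that crossed 0 between settings (-0.13 to 0.16). Mef2c itself had 18 peaks, of which 2 were lower and 0 higher, the lowest at -1.35. Ppp3ca, the catalytic subunit of calcineurin, which signals through NFAT and MEF2, had 5 of 31 lower, the leading one 182547 bases from the start with 6.68, 7.22 and 7.04 CPM in KO and 18.2, 25.1 and 21.3 CPM in WT (-1.62 ± 0.22, adjusted p = 1.39e-10). Hdac9 had 3 of 12 lower whereas Hdac4, above, had higher ones only. Ppargc1a, which encodes PGC-1α, had 1 of 7 lower, with 13.7, 9.28 and 11.4 CPM in KO and 23.6, 34.8 and 19.6 CPM in WT (-1.19 ± 0.21). Over the omissions this list had 9 to 14 lower calls and 3 to 11 higher ones, with 3 on omitting KO replicate 5, 4 on omitting WT replicate 3 and 5 on omitting KO replicate 4. The myogenic regulator list had 5 of 81 lower and 10 higher (median -0.09, between -0.09 and 0.12 over the settings), the higher ones mostly in Pax7 and Tead4 and the lower ones including a peak annotated to Myf6 that lies in Ptprq (-1.41 ± 0.20) and 2 of 4 of Vgll2, a TEAD cofactor, whose leading peak lies in Ros1 (-1.46 ± 0.23). The higher calls there numbered 5 without KO replicate 5 and 4 without WT replicate 3, and the lower calls 2 without KO replicate 5 or WT replicate 4.

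Of 83 peaks in genes of oxidative and fatty acid metabolism, 3 were lower and 8 were higher (median 0.07), and all 8 higher ones were those of Esrrg (3 without WT replicate 3, 4 without KO replicate 4). In the atrophy and insulin signalling list 18 of 189 were lower and 7 higher (median -0.10, -0.16 to 0.10 over the settings), with 5 lower calls on omitting WT replicate 4, 6 on omitting KO replicate 5 and 11 on omitting KO replicate 4. The authors' factors gave 2 lower and 6 higher ones. Beside the 8 of Pik3r1 the lower ones were 6 of 13 of Foxo1, a driver of muscle wasting, and 2 each of Rptor and Bmpr1a. Higher ones included 2 of 4 of Smad2 and 1 of 3 of Acvr2b, both of the myostatin pathway. The called Acvr2b peak had 24.0, 24.1 and 20.2 CPM in KO and 11.7, 13.8 and 9.07 CPM in WT (0.97 ± 0.21, adjusted p = 1.85e-04), and that of Akt2, 1 of 4, had 31.2, 37.8 and 28.2 CPM in KO and 17.5, 18.8 and 17.0 CPM in WT (0.87 ± 0.19). KO and WT did not overlap at either. In the lamina and heterochromatin list, to which PRR14 belongs by function, 5 of 50 peaks were lower and 1 higher (median -0.16), and all 6 were among the 19 peaks of Syne1, with 3 lower without KO replicate 5, WT replicate 4 or WT replicate 8. None of the other 11 genes with peaks in that list had a call.

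Intronic peaks of markers of other cell types were few. Of 12 endothelial marker peaks 1 was lower, in Cdh5 (-1.77), and 1 higher, in Pecam1 (0.66). Of 6 smooth muscle marker peaks 0 were lower and 1 was higher, annotated to Myh11 but lying in Cep20 (1.64), and of 4 macrophage marker peaks 1 was lower, in Mrc1 (-0.89), a call lost with total counts, the authors' factors and DESeq2 and in 5 of the 6 omissions. The Pecam1 and Myh11 calls were each lost without KO replicate 5 and without WT replicate 3, and that of Pecam1 also with the authors' factors. The 14 satellite cell marker peaks held 4 higher and 0 lower, all of Pax7. The other satellite cell markers with intronic peaks went the other way without a call. Cdh15 had 5 peaks with a median log2 fold change of -0.31, and Calcr had 1 peak, at -0.51. The 7 myofibre marker peaks held 2 lower and 0 higher, in Ttn (-0.67) and Ckm (-0.69). Neither myofibre call was made with the authors' factors or held in every omission, and that of Ckm (adjusted p = 0.0499) was also lost with every other scaling, filter or tool tried. Fibro-adipogenic, adipocyte and Schwann cell markers had 1 intronic peak each and no call.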

How the data were processed

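Libraries were ATAC-seq profiles of quadriceps nuclei. The deposited table lists 1 common set of peaks with raw counts per library, the authors' normalized signal, log2 fold change, p-value and adjusted p-value, a score per peak of unstated scale, annotated class, nearest gene and distance to its start. The signal is each count divided by 1 factor per library, by the authors, and these factors do not scale with depth. Per the submitters' processing notes, Trimmomatic, BWA, MACS2, deepTools, bedtools and DESeq2 1.6.3 were used with build GRCm38. The sources used here do not say how reads were counted or shifted or how duplicates were handled. The score was not used.

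Counts as deposited were fitted over all peaks in edgeR 4.0.16 (R 4.3.3) by its quasi-likelihood F test (TMM factors, minimum count 10, minimum total 15, Benjamini-Hochberg adjustment over 73896 peaks, called below 0.05, no covariate). SE is the log2 fold change divided by the root of the F statistic. Alternatives were median-ratio factors, total counts, the authors' factors, no filter, DESeq2 1.42.0, limma-voom 3.58.1, omission of each library, and the authors' adjusted p. Counts of a gene's intronic peaks were summed per annotated gene and tested the same way. On simulated data over 73896 peaks with 40 changed peaks per size, the KO against WT test called 100% of those raised 4-fold, 47.5% of those raised 2-fold and 2.5% of those raised 1.5-fold, 87.5% of those lowered to a fold of 0.25 and 30% of those lowered to 0.5, and 13 of its 120 calls were false. The changed peaks were intronic ones with a mean level above the lower quartile of all tested peaks. They were far fewer than the 3128 lower and 2049 higher calls in the real data, which alters the adjusted p cutoff. The shares called therefore describe the simulated setting only. Totals of 7608514 to 12061822 counts set the precision, and the biological coefficient of variation was 0.201.

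Peaks named are the 12 with the smallest adjusted p in each direction. Genes named are the 12 with the most tested intronic peaks and, with 5 or more, the 10 with the most called peaks each way, and up to 4 peaks with the smallest adjusted p stand for each of 20 gene lists. Peaks named beyond that rule were chosen after their values were seen. The intronic peaks, lists and tests were chosen with earlier results of these data known. The table gives no symbol for 15 gene IDs, 0 of which matched RefSeq. Host genes are spans of RefSeq protein-coding genes of GRCm38.p6, and spans of non-coding genes were not searched. Some results of single genes are not reported here.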

Additional observations from a re-analysis of the deposited data

How the results depend on the processing

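With total counts the median log2 fold change of the distance classes above 10, 30 and 100 kb was 0.031, -0.019 and -0.10, and 117 gene sums were higher. With the authors' factors 276 peaks were lower, the 4 class medians from near to far were 0.21, 0.18, 0.14 and 0.056, and 14 sums were lower and 24 higher. Widths below 1000 bases held 684 lower and 488 higher peaks, and the authors' adjusted p gave 203 lower. Genes with 2 or more peaks gave 355 lower and 215 higher sums, and those with 10 or more gave 88 and 17. Omitting 1 library gave 535 to 1254 lower and 379 to 905 higher peaks, 73 to 165 lower and 28 to 187 higher sums, and class medians of -0.014 to 0.074, -0.044 to 0.051, -0.088 to 0.0039 and -0.18 to -0.059. Gene sums that changed sign were not called with all libraries. With the authors' factors Pde4d was at 0.10, Sox6 at 0.012, Kcnma1 at 0.13, Foxn3 at 0.19 and Cdkal1 at 0.0062. Foxn3 was at 0.016 with median-ratio factors or DESeq2, 0.047 with total counts and 0.063 with peaks inside the gene span. Over omissions Pde4d ran from -0.16 to 0.058, Kcnma1 from -0.077 to 0.10, Gse1 from -0.022 to 0.17 and Foxn3 from -0.035 to 0.13. The cause was not tested. Of 100 single peaks followed, 0 changed sign in any setting run, but only 66 kept the side of the threshold in all of them, as did 7 of 30 gene sums. The values for peaks inside gene spans, for widths from 500 to under 1000 bases and without the genes named for calls (1162 lower, 764 higher) were chosen after seeing the data. No paired analysis was possible because the groups share only replicate number 4.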
